A study of Mus musculus with 7 samples.

Results

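The 9 genes described here encode the signaling core of the T-cell receptor of a CD8+ T cell: the CD3 chains (Cd3d, Cd3e and Cd3g), the zeta chain (Cd247), both chains of the CD8 coreceptor (Cd8a and Cd8b1), the kinases Lck and Zap70, and the adaptor Lat. They were chosen by gene symbol. All 9 were found among the 55367 genes of the count table, and all 9 were among the 12623 genes with enough counts to be tested.

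CD8+ T cells were sorted from spleens of Foxp3 YFP/cre mice, in which a yellow fluorescent protein and Cre are expressed from the Foxp3 gene. They were exposed for 48 hours to small extracellular vesicles (sEVs), given in the labels as 100 μg/ml for every culture, and their RNA was read at the 3′ end with molecular identifiers. In 4 libraries the vesicles came from healthy spleens (HCME-sEVs) and in 3 from the leukemia microenvironment (LME-sEVs), the spleens of Eμ-TCL1 mice, in which the TCL1 oncogene is driven in B cells and causes a disease like chronic lymphocytic leukemia. These group sizes follow the labels, whereas a legend of the study gives them the other way round, a conflict that the sources used here do not settle. The question was how LME-sEVs change the RNA of CD8+ T cells. Both groups received vesicles and none went without, so a difference is between 2 kinds of vesicles. The methods describe CD8+ T-cell cultures with plate-bound anti-CD3, anti-CD28 and IL2 and a dose set to the amount found in each kind of spleen, while the labels give 1 dose for all and do not mention anti-CD3. No source states whether the libraries came from separate mice, so p-values measure the spread between these libraries, which may be technical.

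Antigen is bound by the alpha and beta chains of the receptor, which have almost no intracellular part. The CD3 and zeta chains carry the tyrosine motifs (ITAMs) through which the signal enters the cell. CD8 binds MHC class I and brings Lck, which phosphorylates these motifs; ZAP-70 then docks on them and phosphorylates LAT, the scaffold on which calcium and RAS signaling are assembled.

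Libraries held 3689831 to 5030522 counts, and factors of the trimmed mean of M values (TMM) were 0.965 to 1.03. Levels are TMM-normalized counts scaled to a common library size (CPM), and fold changes are log2 values of LME-sEVs over HCME-sEVs. Because every molecule is read once at its 3′ end, gene length does not enter a level, but capture differs between genes. Genes of CD8+ T cells were detected: Cd3e, Cd8a and Cd8b1 had at least 424 counts in every library. Of the markers of other cells, Cd4 had 0 to 3, Foxp3 0 to 1 and Ncr1 0 to 1 counts. Others were not low: Ighm of the B-cell list had 913 to 1674 and Eomes, alone of the NK list, 590 to 866. Zbtb7b of the CD4 list had 22 to 82. In bulk RNA, fewer cells of a type and less RNA per cell cannot be told apart.

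The CD3 genes lie side by side on chromosome 9 of GRCm38 (GENCODE vM21), within 40.1 kb: Cd3g at chr9:44969572-44980431 on the minus strand, Cd3d at chr9:44981786-44987339 on the plus strand and Cd3e at chr9:44998740-45009627 on the minus strand. Cd3g and Cd3d are transcribed away from each other from starts 1354 bases apart. The windows from 250 bases before to 50 bases after the start are shown for these 3 genes, which share a locus and had the largest fold changes of the 9, and for Lat, whose level lay on the other side. They are RefSeq sequence of GRCm38.p6, printed 5′ to 3′ on the strand of the gene, with capitals at 4 six-letter motifs searched on both strands, chosen after the values were seen: ACTTCC (an ETS core), TGTGGT (RUNX), CTTTGA (TCF) and CAGCTG (an E-box).

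Cd3e, chr9:45009562-45009861, minus strand: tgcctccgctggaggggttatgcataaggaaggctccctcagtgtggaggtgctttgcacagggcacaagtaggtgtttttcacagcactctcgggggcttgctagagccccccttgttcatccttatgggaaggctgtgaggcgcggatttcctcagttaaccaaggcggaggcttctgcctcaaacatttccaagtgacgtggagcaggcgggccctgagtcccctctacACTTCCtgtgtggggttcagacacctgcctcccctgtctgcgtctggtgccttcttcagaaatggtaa
Cd3g, chr9:44980382-44980681, minus strand: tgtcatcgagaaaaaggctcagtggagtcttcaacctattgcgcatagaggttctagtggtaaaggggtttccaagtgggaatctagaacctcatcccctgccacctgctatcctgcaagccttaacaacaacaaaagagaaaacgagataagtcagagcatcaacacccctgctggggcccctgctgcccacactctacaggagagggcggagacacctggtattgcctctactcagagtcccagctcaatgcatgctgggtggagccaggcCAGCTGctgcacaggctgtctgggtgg
Cd3d, chr9:44981536-44981835, plus strand: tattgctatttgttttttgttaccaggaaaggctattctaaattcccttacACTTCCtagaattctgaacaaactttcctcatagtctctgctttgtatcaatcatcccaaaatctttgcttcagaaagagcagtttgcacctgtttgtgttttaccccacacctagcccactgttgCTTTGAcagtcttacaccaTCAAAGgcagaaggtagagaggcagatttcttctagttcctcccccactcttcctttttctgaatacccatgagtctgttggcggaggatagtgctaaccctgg
Lat, chr7:126369519-126369818, minus strand: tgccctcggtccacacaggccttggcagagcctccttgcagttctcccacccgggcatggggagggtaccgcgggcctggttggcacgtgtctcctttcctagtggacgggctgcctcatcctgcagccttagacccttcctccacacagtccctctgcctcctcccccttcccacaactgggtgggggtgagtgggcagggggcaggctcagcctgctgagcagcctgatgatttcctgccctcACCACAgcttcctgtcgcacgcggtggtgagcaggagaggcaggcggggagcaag

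The Cd3e window held ACTTCC with its first base 18 bases before the start, and the Cd3d window held it at -199 together with CTTTGA at -73 and, on the other strand, -54. The Cd3g window held none of the first 3 motifs and a CAGCTG after its start, at 23. The Lat window held TGTGGT on the other strand at -5. Of the 9 genes, 8 had a window in the table (Cd8b1 did not). Since a gene can have several starts, these 8 had 11 windows. ACTTCC was present in 6 of the 11 windows (of Cd247, Cd3d, Cd3e, Lck and Zap70) and in 23.8% of 32851 mouse promoter windows of the same length. TGTGGT was present in 3 of the 11 (of Lat, Lck and Zap70) and in 16.8% of all windows. CTTTGA was present in 3 (of Cd247, Cd3d and Zap70) and in 16.0%, and CAGCTG in 2 (of Cd3g and Cd8a) and in 16.3%. A match describes letters only, not bound factors. GC content ran from 42.3% (Cd3d) to 65.7% (Lat), against a median of 52.7% over all windows. Cd3g and Cd3e, at 54.0% and 56.7%, lay above that median and Cd3d below it.

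RNA of the receptor chains Cd3e and Cd3g was higher with LME-sEVs, and no gene of the 9 was lower by the test. Among all 12623 genes, 1131 (8.96%) passed an FDR under 0.05 (edgeR, quasi-likelihood test, adjusted after Benjamini and Hochberg), against 2 of the 9 here. In the higher direction the count was 2 of 9 against 473 genes (3.75%), and in the lower direction 0 of 9 against 658 genes (5.21%). Scaling by library size only turned that split of all genes to 614 higher and 465 lower. Genes with at least as many counts as the least counted of the 9 (a mean of 345) were called more often, 16.7% in all and 4.64% in the higher direction. At an unadjusted p under 0.05 in either direction, 5 of the 9 passed, against 22.7% of all genes. All 5 were higher. At this threshold no share was taken by direction or for the deeply counted genes, so the 22.7% is not matched to the 9 in depth. DESeq2 gave 1 higher and 0 lower at its adjusted threshold, and limma-voom 2 and 0. None passed with a log2 fold change beyond 1, the size set in the methods, as 1.28% of all genes did. The median log2 fold change of the 9 was 0.19, against 0.0095 over all tested genes.

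**Figure D1:**
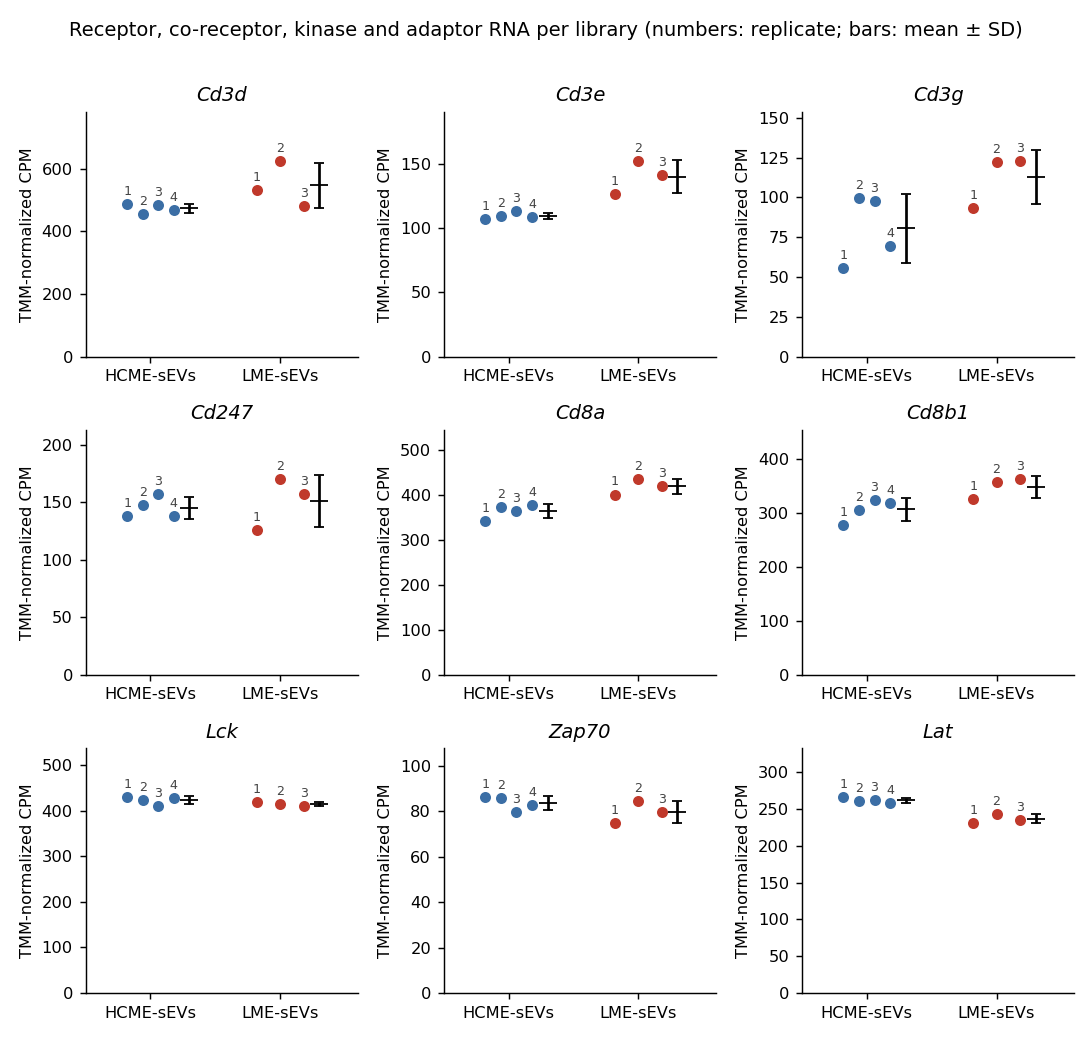
TMM-normalized CPM of each of the 9 genes (vertical axes from 0) in the 4 HCME-sEV libraries (blue) and 3 LME-sEV libraries (red); numbers are replicates, and black bars are mean ± SD. All LME-sEV points of Cd3e, Cd8a and Cd8b1 lie above the HCME-sEV points, those of Lat lie below, and the 2 groups overlap for the other genes.

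Cd3e, the epsilon chain, pairs with the delta and the gamma chain in the receptor. It measured 107, 109, 113 and 109 CPM in HCME-sEV libraries 1 to 4 and 127, 152 and 141 CPM in LME-sEV libraries 1 to 3. Every LME-sEV library was above every HCME-sEV library, and the HCME-sEV libraries lay close together. The mean levels in CPM were 110 ± 2.43 (SD, n = 4) and 140 ± 12.7 (SD, n = 3). Cd3e rose by 27.9% (95% interval 13.5% to 44.2%), a log2 fold change of 0.36 (SE 0.083, FDR = 0.0106). The FDR was 0.0909 without LME-sEV library 2 and 0.0548 without LME-sEV library 3, so with either left out the call was lost. An exon of Cd3e overlaps an antisense transcript, Gm48719, and whether counting used the strand is not given in the sources used here.

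Cd3g, the gamma chain, had the largest log2 fold change of the 9 and the widest spread. Its levels were 55.7, 99.3, 97.9 and 69.4 CPM with HCME-sEVs and 93.4, 122 and 123 CPM with LME-sEVs. The groups overlapped, since LME-sEV library 1 was below HCME-sEV libraries 2 and 3, and HCME-sEV libraries 1 and 4 were low. The mean levels in CPM of 80.6 ± 21.6 (SD, n = 4) and 113 ± 16.8 (SD, n = 3) gave a log2 fold change of 0.49 (SE 0.15, 95% interval 0.19 to 0.80, FDR = 0.0405). This call was lost in DESeq2 (adjusted p = 0.271) and without any of 4 libraries, at an FDR of 0.0707 without HCME-sEV library 1, 0.129 without HCME-sEV library 4, 0.193 without LME-sEV library 2 and 0.181 without LME-sEV library 3. The coefficient of variation among HCME-sEV libraries was 26.8%, of which counting alone would give 5.69%. Of 3270 genes with a mean within a factor of 2 of that of Cd3g, 0.887% varied more.

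HCME-sEV libraries 1 and 4, where Cd3g was lowest, also had the fewest counts of Mcpt8, a basophil protease (3 and 9, against 35 and 24 in libraries 2 and 3). The 6 basophil and mast cell markers summed to 5.30 to 34.0 CPM with HCME-sEVs and 27.7 to 44.5 CPM with LME-sEVs, and 3 of them (Mcpt8, Prg2 and Prss34) were called higher. Their part in the level of Cd3g was not tested.

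Cd3d, the delta chain, was the most abundant of the 9 in both groups. Its levels were 487, 456, 484 and 469 CPM with HCME-sEVs and 534, 625 and 483 CPM with LME-sEVs. LME-sEV library 3 fell within the HCME-sEV range, and the others were above it. The mean levels in CPM were 474 ± 14.6 (SD, n = 4) and 547 ± 71.9 (SD, n = 3), a log2 fold change of 0.21 (SE 0.083, 95% interval 0.033 to 0.38) that did not pass the adjustment (FDR = 0.133).

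Cd247 encodes the zeta chain, which carries more of the signaling motifs than any other chain of the complex, and lies apart from the CD3 genes at chr1:165788681-165877277 (plus strand). Its levels were 138, 148, 157 and 138 CPM with HCME-sEVs and 126, 170 and 157 CPM with LME-sEVs, so that LME-sEV libraries held both the lowest and the highest value. At mean levels in CPM of 145 ± 9.44 (SD, n = 4) against 151 ± 22.8 (SD, n = 3), the log2 fold change was 0.061 (SE 0.095, 95% interval -0.14 to 0.26, FDR = 0.768). It turned to -0.031 without LME-sEV library 2. Its exons overlap Gm16565 on the same strand and Pou2f1 on the other, so reads from these may be included.

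LME-sEV libraries differed more in the receptor chains than HCME-sEV libraries did for Cd3d, Cd3e and Cd247. The coefficients of variation were 13.1% against 3.07% for Cd3d, 9.11% against 2.22% for Cd3e, and 15.1% against 6.50% for Cd247. Cd3g went the other way, at 14.9% against 26.8%. Outside the receptor chains, Zap70 (5.91% against 3.66%) and Lat (2.61% against 1.32%) also varied more with LME-sEVs, and Cd8a, Cd8b1 and Lck varied less. With 3 and 4 libraries these are imprecise, and the difference in spread was not tested. LME-sEV library 2 had the highest Cd3d, Cd3e and Cd247 of all 7 libraries. The summed level of the 4 receptor chains was 788, 812, 852 and 785 CPM with HCME-sEVs and 879, 1069 and 904 CPM with LME-sEVs.

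The CD8 genes lie on chromosome 6, Cd8b1 at chr6:71322788-71337494 and Cd8a at chr6:71373427-71379173, both on the plus strand and 35932 bases apart. Cd8a, the alpha chain whose tail binds Lck, measured 341, 374, 363 and 376 CPM with HCME-sEVs and 401, 435 and 420 CPM with LME-sEVs. Cd8b1, the beta chain that improves coreceptor function, measured 278, 306, 324 and 318 CPM and 326, 358 and 363 CPM. In both genes every LME-sEV library was above every HCME-sEV library, for Cd8b1 narrowly, and HCME-sEV library 1 was lowest.

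Neither CD8 gene passed the adjustment. Cd8a had mean CPM of 364 ± 15.9 (SD, n = 4) and 418 ± 17.1 (SD, n = 3) and a log2 fold change of 0.20 (SE 0.072, 95% interval 0.052 to 0.35, FDR = 0.0891), and it passed when scaled by library size only (FDR = 0.0395). Cd8b1 had mean CPM of 307 ± 20.6 (SD, n = 4) and 349 ± 20.1 (SD, n = 3) and a log2 fold change of 0.19 (SE 0.078, 95% interval 0.025 to 0.35, FDR = 0.148). Separation of all libraries by group was not rare: it held for 2567 genes (20.3%), 9.49% higher and 10.8% lower with LME-sEVs, against 4 of the 9 here, 3 of them higher and 1 lower. Among genes at least as deeply counted as the 9 it held for 31.1%.

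Lck, the kinase that starts the signal, kept nearly the same level in all 7 libraries. Its levels were 430, 425, 410 and 428 CPM with HCME-sEVs and 420, 415 and 410 CPM with LME-sEVs, all LME-sEV values being inside the HCME-sEV range or at its lower edge. The mean levels in CPM were 423 ± 9.03 (SD, n = 4) and 415 ± 4.83 (SD, n = 3). The log2 fold change was -0.029 (SE 0.069, 95% interval -0.17 to 0.12, FDR = 0.854), and 0.016 when scaled by library size only. Lck lies at chr4:129548344-129573641 on the minus strand. Its exons overlap the microRNA gene Mir8119, and those of Lat overlap Mir7058, both on the same strand.

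Zap70, the kinase that docks on the phosphorylated receptor, lies at chr1:36761798-36782818 on the plus strand. It measured 86.3, 85.9, 79.8 and 82.6 CPM with HCME-sEVs and 75.1, 84.5 and 79.9 CPM with LME-sEVs. The groups overlapped, and LME-sEV library 1 was lowest. The mean levels in CPM were 83.6 ± 3.06 (SD, n = 4) and 79.8 ± 4.72 (SD, n = 3), a log2 fold change of -0.066 (SE 0.087, 95% interval -0.25 to 0.11, FDR = 0.713).

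Lat, the scaffold phosphorylated by ZAP-70, lies at chr7:126363824-126369570 on the minus strand, and its promoter window is printed above. It measured 266, 261, 263 and 258 CPM with HCME-sEVs and 232, 244 and 236 CPM with LME-sEVs. Every LME-sEV library was below every HCME-sEV library. The mean levels in CPM were 262 ± 3.45 (SD, n = 4) and 237 ± 6.20 (SD, n = 3), a log2 fold change of -0.14 (SE 0.072, 95% interval -0.29 to 0.0050) that did not pass (FDR = 0.238). The HCME-sEV libraries varied by 1.32% in Lat, below the 3.08% that counting alone would give, and 99.6% of 1377 genes of similar level varied more.

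As percent change, the 95% intervals give the sizes the data leave possible. For Lck and Zap70 they ran from -11.3% to 8.32% and from -15.7% to 8.24%, and for Lat from -18.4% to 0.345%. For Cd3d they ran from 2.35% to 30.0% and for Cd8a from 3.66% to 27.8%, before adjustment over all genes.

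**Figure D2:**
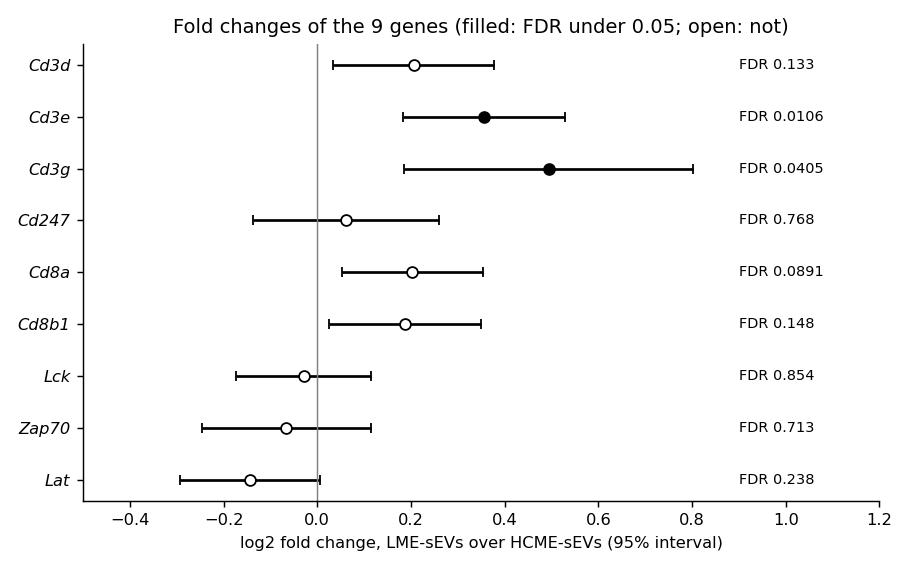
Log2 fold change of LME-sEVs over HCME-sEVs for each of the 9 genes with its 95% interval (horizontal axis) and FDR from edgeR's quasi-likelihood test; filled points have an FDR under 0.05. Cd3e (0.36) and Cd3g (0.49) are filled, and the kinases and Lat lie between -0.14 and -0.029.

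Grouped by role, fold changes of the receptor and coreceptor genes were positive (Cd247 turned negative without LME-sEV library 2), and those of the kinases and Lat were negative (Lck turned positive when scaled by library size only). In CPM, the CD8 chains summed to 670 ± 34.6 (SD, n = 4) and, with LME-sEVs, to 767 ± 35.7 (SD, n = 3), and the 4 receptor chains to 809 ± 31.0 and 951 ± 103. Lck, Zap70 and Lat summed to 769 ± 12.2 and 732 ± 10.1. In each of the 3 sums the groups did not overlap. The same held for 20.3% of all single genes and for 31.1% of those at least as deeply counted as the 9. Cd3d made up most of the chain sum (474 CPM with HCME-sEVs), and Lck and Zap70, each taken alone, overlapped between the groups. Sums were not tested. Together the 9 genes took 0.219% to 0.260% of the normalized counts.

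Ratios of 2 genes within a library need no scaling between libraries, and 6 were compared by an exact permutation of the group labels (two-sided on the absolute difference), which allows no p below 0.0286. The ratio of Cd247 to Cd3e was 1.28, 1.35, 1.39 and 1.27 with HCME-sEVs and 0.992, 1.12 and 1.11 with LME-sEVs. All LME-sEV ratios were lower, a log2 difference of -0.30 (exact p = 0.0286, adjusted over the 6 ratios 0.0857). The ratio of Lat to Lck was 0.602 to 0.641 with HCME-sEVs and 0.552 to 0.587 with LME-sEVs, again without overlap, a log2 difference of -0.12 (exact p = 0.0286, adjusted 0.0857). After adjustment no ratio was under 0.05. With the two-sided p taken by doubling the smaller tail, which was computed first, both were at an exact p of 0.0571.

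The ratio of Cd3d to Cd3e was 4.17 to 4.53 with HCME-sEVs and 3.42 to 4.21 with LME-sEVs (log2 difference -0.15, exact p = 0.0571, adjusted 0.114). LME-sEV libraries 2 (4.10) and 3 (3.42) were below the HCME-sEV range, and LME-sEV library 1 (4.21) was inside it. Cd8a to Cd8b1, the proportion of the coreceptor chains, was 1.12 to 1.23 with HCME-sEVs and 1.16 to 1.23 with LME-sEVs (log2 difference 0.016, exact p = 0.714, adjusted 0.714). Zap70 to Lck (log2 difference -0.040, exact p = 0.629) and Cd3g to Cd3e (0.16, exact p = 0.486) both had an adjusted p of 0.714, the latter with HCME-sEV ratios from 0.518 to 0.910.

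**Figure D3:**
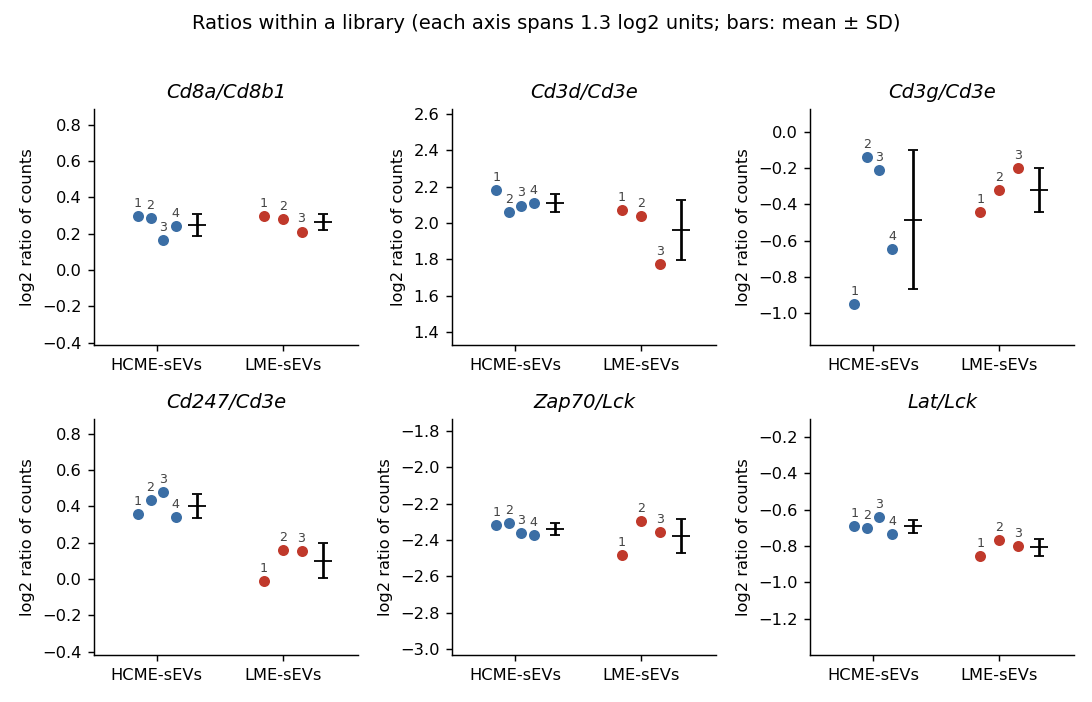
Log2 ratio of the counts of 2 genes in each library (vertical axes, each spanning 1.3 log2 units) for the 6 ratios, HCME-sEVs in blue and LME-sEVs in red, with mean ± SD in black and replicate numbers at the points. The groups are apart for Cd247/Cd3e and Lat/Lck and overlap for the other ratios.

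The order of levels was Cd3d, Lck, Cd8a, Cd8b1, Lat, Cd247, Cd3e, Zap70 and Cd3g with HCME-sEVs, and of these neighbors only Zap70 and Cd3g overlapped. With LME-sEVs it was Cd3d, Cd8a, Lck, Cd8b1, Lat, Cd247, Cd3e, Cd3g and Zap70, with overlap between Cd8a and Lck and between Cd247 and Cd3e. The order of genes carries their capture as well as their abundance.

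Likeness was measured as the mean absolute difference between log2 CPM values over the 7 libraries, each gene centered on its own mean. The closest pair was Cd8a with Cd8b1 (0.041), followed by Lck with Zap70 and Lat with Zap70 (both 0.043). Cd3e was nearest to Cd8a (0.071), Cd3d to Cd3e (0.081), Cd247 to Cd8a (0.10) and Cd3g to Cd3e (0.23). Among 7840 other genes averaging 50 or more counts, the profiles nearest to the mean of the 9 were those of Atp6v1a (0.019), Cenpa (0.021), H2-D1 (0.022), Skap1 (0.026) and Grsf1 (0.027). Skap1 encodes an adaptor of T-cell adhesion and was itself on the list of adaptors below, with a log2 fold change of 0.11 (FDR = 0.477).

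The nearest tested genes on either side of the 9 number 12, looked up after the values were seen, and 1 of them was called. Rmnd5a, 9461 bases beyond Cd8a and coding for part of a ubiquitin ligase, rose by 0.41 on the log2 scale (FDR = 0.00444). The other 11 had log2 fold changes of -0.32 to 0.28 and FDRs of at least 0.125. Ube4a and Mpzl2, which flank the CD3 cluster, had -0.28 (FDR = 0.278) and -0.32 (FDR = 0.472).

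Around the 9 genes, 72 others of the pathway were followed in 6 lists, of which 71 were tested (Syk was not). An FDR under 0.05 was reached by 15 (21.1%), 11 of them higher and 4 lower, against 8.96% of all genes and 16.7% of the deeply counted ones. Some listed genes, such as Trat1 (a mean of 159 counts) and Trgc1 (22.7), were below the depth of the latter. By direction, 3.75% of all genes were called higher and 5.21% lower, so a short list without a call in 1 direction is not unusual. Calls of Trat1, Fyb, Itpr1, Hras, Tcf7 and Trgc4 were kept in all 7 fits that left out a library. The other 9 were each lost both without LME-sEV library 2 and without LME-sEV library 3, at FDRs of 0.0647 to 0.170 in those fits. Exons of Plcg1, Themis, Fyb, Itpr1 and Trdc overlap genes on the other strand, and those of Fyb also overlap Gm7666 on the same strand, so their counts may hold reads of these.

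Of 7 constant-region genes of the antigen receptor, 2 fell and none rose. The gamma-chain constant gene Trgc1 averaged 7.12 ± 1.10 (SD, n = 4) against 3.37 ± 0.661 (SD, n = 3) in CPM, a log2 fold change of -1.09 (FDR = 0.0153). Trgc4 averaged 14.7 ± 5.20 against 6.84 ± 1.49, also -1.09 (FDR = 0.0101), and every LME-sEV library was below every HCME-sEV library in both. Trgc2 had -0.45 (FDR = 0.0761), and Trdc, the delta-chain constant gene, -0.32 (FDR = 0.284). The alpha and beta constants, which make the receptor of most CD8+ T cells, had 0.15 (Trac, FDR = 0.370), 0.085 (Trbc1, FDR = 0.617) and 0.092 (Trbc2, FDR = 0.515).

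None of the 5 other tested kinases of the receptor passed in edgeR, DESeq2 or limma-voom, and 1 had an unadjusted p under 0.05 in each. All 5 had a negative log2 fold change. The TEC family kinases Txk and Tec had -0.20 (FDR = 0.264) and -0.37 (FDR = 0.545).

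Of 17 adaptors and enzymes listed around the receptor and LAT, 4 rose and none fell. Trat1, a transmembrane adaptor that associates with the receptor, averaged 27.5 ± 6.10 (SD, n = 4) against 50.4 ± 8.08 (SD, n = 3) in CPM, a log2 fold change of 0.88 (FDR = 8.02e-04). Its HCME-sEV libraries ran from 22.2 to 35.5 CPM and its LME-sEV libraries from 43.6 to 59.3 CPM. Fyb, the adhesion adaptor ADAP, rose by 0.47 on the log2 scale (FDR = 0.00106), Themis by 0.29 (FDR = 0.0268), and Plcg1, the phospholipase that starts the calcium signal, by 0.30 (FDR = 0.0408).

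Of 25 genes of calcium, RAS and CARMA1 signaling, 3 rose and 2 fell. Itpr1 and Itpr2, receptors through which calcium leaves the endoplasmic reticulum, had log2 fold changes of 0.59 (FDR = 4.75e-04) and 0.44 (FDR = 0.0234). Ppp3ca, which encodes 1 form of the catalytic subunit of calcineurin, had 0.31 (FDR = 0.0235). Hras, a RAS GTPase, fell, averaging 44.3 ± 1.02 (SD, n = 4) against 29.3 ± 1.16 (SD, n = 3) in CPM, a log2 fold change of -0.60 (FDR = 0.00148).

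Of 6 other surface genes of T cells, the costimulatory receptor Cd28 rose by 0.34 on the log2 scale (FDR = 0.0208), and Cd2 (0.097, FDR = 0.508) and Thy1 (-0.066, FDR = 0.673) were not called. Of 11 factors known to act at the CD3 and CD8 loci, 3 rose and none fell: Tcf7 by 0.50 (FDR = 0.00493), Ets1 by 0.41 (FDR = 0.0212) and Tcf12 by 0.34 (FDR = 0.0196), the genes for TCF-1, ETS-1 and HEB. In all 3 the LME-sEV libraries were above the HCME-sEV libraries.

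**Figure D4:**
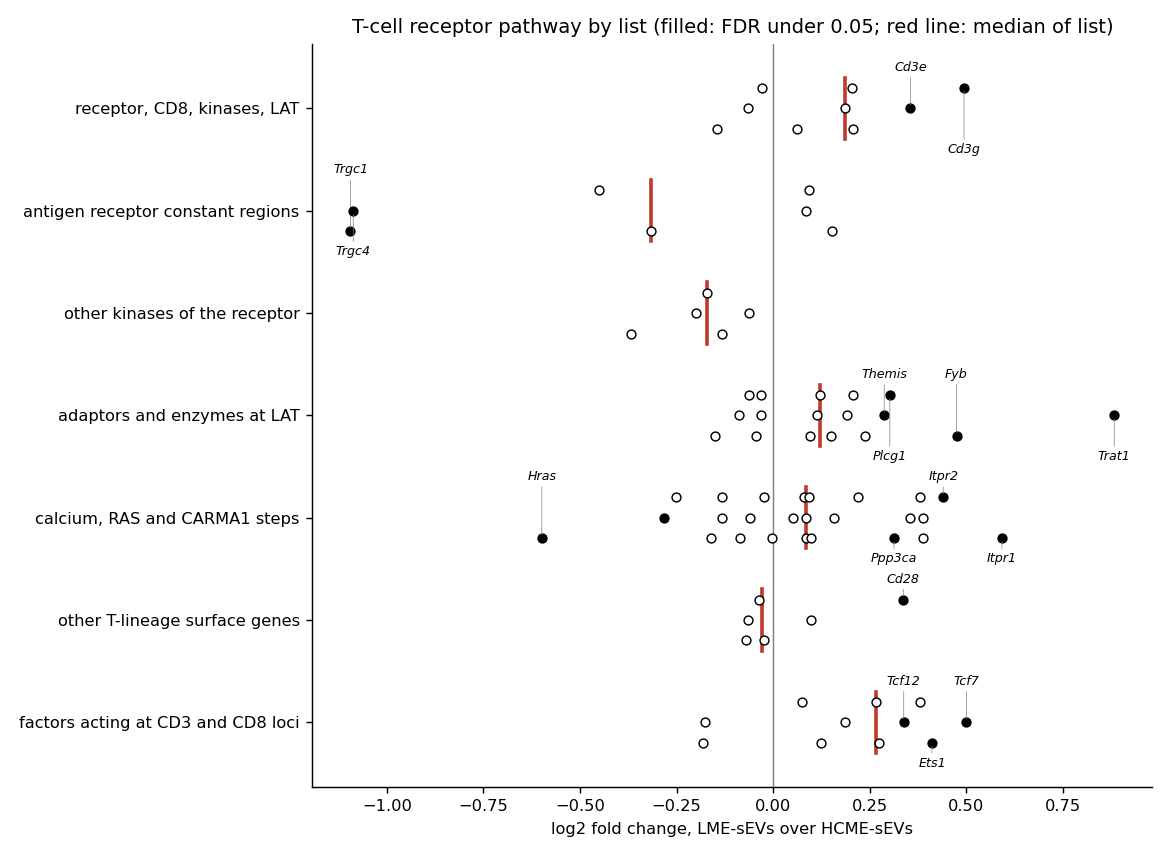
Log2 fold change (horizontal axis) of each tested gene of the 9 and of the 6 wider lists (rows); filled points have an FDR under 0.05, those named in the text carry their symbol, and the red line is the median of the list. The medians run from -0.32 (constant regions) to 0.27 (factors), against 0.19 for the 9 genes.

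Markers of other cells also differed between the groups. The 11 B-cell markers summed to 254 to 295 CPM with HCME-sEVs and 337 to 372 CPM with LME-sEVs, most of it Ighm (913 to 1674 counts), with Cd79a at 0 to 2 counts, and Ighm and Cd74 were called higher. The 7 erythroid and platelet markers summed to 71.8 to 175 CPM and 150 to 197 CPM, with Hba-a1, Pf4 and Ppbp called higher. The 8 myeloid markers were below 9 CPM in every library, at 2.53 to 5.06 and 6.59 to 8.07 CPM. The 6 NK markers summed to 181 to 203 CPM and 167 to 180 CPM, mostly Eomes. The rest of that list was low, with Ncr1 and Klra8 at 0 to 1 counts, Klrb1c at 1 to 8, Tyrobp at 0 to 12 and Cd244a at 10 to 26. The 4 CD4 and regulatory T-cell markers summed to 6.26 to 14.4 CPM and 15.3 to 17.3 CPM, mostly Zbtb7b, which was called higher. Any part of other cells in the levels of the 9 genes was not tested.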

How the data were processed

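RNA-seq was performed on 7 cultures of sorted mouse splenic CD8+ T cells (4 with HCME-sEVs, 3 with LME-sEVs), grouped by the treatment in the labels. The authors trimmed reads with cutadapt 2.10, mapped them to GRCm38 with STAR 2.5.3a, collapsed molecules with UMI-tools 1.0.0 and counted with featureCounts of Subread 2.0.0; the deposited values are whole counts per gene, neither normalized nor filtered. The annotation release and strand setting of the counting are not given in the sources used here.

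Genes averaging 5 or more counts over the libraries entered edgeR 4.0.16 (R 4.3.3) with TMM and the quasi-likelihood test, comparing the 2 groups without covariates and adjusting p (Benjamini-Hochberg) over every gene tested. Log2 CPM used a prior count of 2, and ratios an offset of 0.5 counts. Depth limits low genes: 3 counts corresponded to 0.582 to 0.807 CPM, counting error only. The steps were tested on simulated data. Alternatives were 3 filters, 3 other scalings, DESeq2 1.42.0, limma-voom (limma 3.58.1), the replicate number as a block and leaving out each library. Near-identical 3′ ends (last 300 bases, 95% identity over 200 bases, blast 2.17.0) were found for none of the 9 genes. Exact permutation tests used scipy 1.17.1.

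The 9 genes, the lists and the marker lists were chosen with earlier results of these data known. Beside the 9, the 3 genes of each list with the smallest p are named; Plcg1, Itpr2, Ppp3ca, 4 further constant-region genes, the 12 flanking genes, the motifs and the comparison of spread with genes of similar level were added after values were seen. Some genes of the lists are counted but not reported here by name. The ratio test first used the doubled smaller tail, and the absolute difference was adopted after those p-values were seen.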

Additional observations from a re-analysis of the deposited data

Results flagged for a closer look

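In HCME-sEV library 1, Tmem131, beside Zap70, and Spns1, beside Lat, stood apart from the other HCME-sEV libraries. The gap to the nearest of them was 0.833 of the whole range of the group for Tmem131 and 0.903 for Spns1. Both were above the 95% critical value of Dixon's ratio for 4 libraries. Of 50 values examined in this way 2 stood apart, where chance gives about 2.5. Across tested genes, however, HCME-sEV library 1 differed most from the others of its group. The chi-square per degree of freedom of its pairs was 4.2 to 6.1, against 2.1 to 3.7 for the other HCME-sEV pairs. Pairs of LME-sEV libraries had 2.5 to 2.6. The 3 LME-sEV libraries were too few to examine.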

How the results depend on the processing

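Of 839 alternative values for 55 results, 770 were counted as kept, by direction and side of the threshold, or within 1.5 times for counts. For ratios with a library left out only the direction was compared, since so few libraries allow no exact p under 0.05. Cd247/Cd3e and Lat/Lck were each under 0.05 in 0 of those 7 fits. Of the 9 genes, 2 were called as reported, 1 in DESeq2, 0 with a log2 fold change beyond 1, 3 under library size only, and 0 to 2 when a library was left out. The calls over all genes went from 1131 to 391 to 1305 and those of the wider pathway from 15 to 6 to 18 when a library was left out, lowest without LME-sEV library 2 (391 and 6). Direction turned for Lck under library size only (0.016), for Cd247 without LME-sEV library 2 (-0.031, in a range up to 0.18), and for the smallest ratios when a library was left out. Cd8a/Cd8b1 then ran from -0.013 to 0.041 and Zap70/Lck from -0.081 to 0.011. The log2 fold changes then ran from 0.29 to 0.43 for Cd3e and from 0.35 to 0.61 for Cd3g. With p from the doubled smaller tail, Cd247/Cd3e (-0.30) and Lat/Lck (-0.12) had an exact p of 0.0571. That form was computed first, and the absolute difference reported above (exact p = 0.0286) was chosen after seeing the data. The flanking genes were also added after seeing the data. Among flanking genes, direction turned for Hdac1 (0.0064 by upper quartile, 0.031 by library size only), Eif3i (-0.016 with the replicate block) and, leaving out a library, for Smyd1 (-0.033 to 0.29), Hdac1 (-0.055 to 0.028), Eif3i (-0.070 to 0.078), Sbk1 (-0.12 to 0.42) and Spns1 (-0.25 to 0.017). Deviations of libraries with the same replicate number correlated at r = 0.072, 0.155 and 0.027 across genes. Pairs with different numbers ran from -0.206 to 0.080, so the 0.155 of replicate 2 was the highest of all. LME-sEV library 1 correlated best with HCME-sEV library 3 (0.080, against 0.072 with library 1). These small values cannot settle whether the numbers mark pairs, and the main fit used no pairing. With the replicate block, 3 of the 9 genes (Cd8a at FDR = 0.0479 added) and 1454 of all genes were called. Cd3g then had an FDR of 0.00176. The causes of these shifts were not tested. Each of the 9 genes had at least 231 counts in every library, and only 3 and 4 libraries carry each comparison.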
